A study of Mus musculus with 99 samples.

Results

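Myoglobin, the product of the mouse gene Mb, was followed through every library of a study of leg muscle and spinal cord in ageing and exercised mice. Mb is 1 gene of the 35870 in the count table, and its row was taken by its symbol. It was selected on its measured levels in these libraries, its relation between both muscles and its relation to mitochondrial mRNA, so these are given as descriptions with no p-value. Polyadenylated RNA had been sequenced from gastrocnemius (calf muscle), quadriceps (thigh muscle) and whole spinal cord of wild-type male C57BL/6 mice. Mice had been perfused with saline before dissection. All groups shared strain, sex and genotype and differed in age and activity. A sedentary group was 10 months old, another sedentary group was 18 months old, and the exercised mice were also 18 months old. The labels do not say what the exercise was or how long it lasted. Gastrocnemius and cord each had 10, 10 and 13 libraries in that order, and quadriceps had 10, 9 and 12.

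Myoglobin is a small haem protein of heart and skeletal muscle fibres. It binds oxygen, stores it and eases its movement from the cell surface to the mitochondria, and it also reacts with nitric oxide. Oxidative fibres hold much more of it than glycolytic fibres, which gives red muscle its colour. Calcium signalling through calcineurin and NFAT, the factors MEF2 and Sp1, and the coactivator PGC-1 alpha are the textbook regulators of its transcription in muscle.

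Mb (Entrez 17189) lies on the minus strand of chromosome 15, from 77015487 to 77050668 in the RefSeq annotation of GRCm38.p6. The count table gives it a length of 1252 bases. In GENCODE M21 its exons share 64 bases with those of Apol6 and 412 bases with those of Gm49540, both on the plus strand, and whether counting used strand is not given in the sources used here. Apol6 had a mean of 41.4 CPM (counts scaled to a common library total) in gastrocnemius and 36.9 CPM in quadriceps. RefSeq lists 3 start sites for Mb, and the window before the middle one, which holds no annotated Mb exon, is shown because Mb is the gene whose level moves in these data and the classical muscle control elements were mapped close to its start. The window is chr15:77022788-77023037 on the minus strand (GRCm38.p6), written 5′ to 3′ up to the base before the start, with the CCAC box and both E-boxes in capitals.
Mb promoter window: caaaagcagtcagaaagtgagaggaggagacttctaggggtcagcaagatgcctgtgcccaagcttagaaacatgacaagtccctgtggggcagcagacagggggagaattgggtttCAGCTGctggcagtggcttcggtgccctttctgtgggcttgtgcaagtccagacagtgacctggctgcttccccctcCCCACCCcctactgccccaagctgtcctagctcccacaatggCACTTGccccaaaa

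The motifs were searched on both strands. The CCAC box (CCCACCC) lies 56 to 50 bases before the start, and 15.8% of 32851 promoter windows of the same length hold this motif. E-boxes (CANNTG), the sites of MyoD-type factors, lie 133 to 128 and 14 to 9 bases before the start, and 66.2% of windows hold at least 1. No match to an MEF2 element (2.92% of windows), a hypoxia response element (ACGTG or GCGTG, 38.6%), an oestrogen-related receptor half-site (AAGGTCA, 4.08%), an NFAT core (GGAAA, 55.6%), an M-CAT element (CATTCC, 12.6%) or a TATA box (TATAAA, 12.4%) was found in this window. A match describes letters and is not evidence of binding, and no match says nothing on sequence outside the window.

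Library totals ran from 29.06 to 62.77 M (mega) counts. The summed level of 20 skeletal muscle markers was 184459 to 316776 CPM in the muscle libraries and 328 to 1586 CPM in cord, while 10 spinal cord markers summed to 26.8 to 100.2 CPM in muscle and to 23353 to 28859 CPM in cord, so the tissue labels and the markers went together in all 97 libraries. Library names here are the numbers from the titles. In gastrocnemius the libraries 3.1 and 2.2, among quadriceps 3.1, and of the cord libraries 5.2 and 6.1 stand apart from the rest of their tissue, and values that move most without them are also given without them. Their median r of log2 CPM with the other libraries of the tissue was the lowest of each tissue, with 0.964 and 0.974 for both gastrocnemius libraries, 0.956 for that of quadriceps and 0.977 and 0.980 for both from cord, beside tissue medians of 0.990, 0.988 and 0.991. Nothing in the labels says which libraries came from separate animals, so the p-values below measure the spread between libraries. In bulk tissue, fewer cells of a type and less RNA per cell cannot be told apart.

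Mb was among the most abundant transcripts of both muscles and was at 0.35% of its gastrocnemius level in cord. Between tissues it is compared in TPM, a share of all transcripts that takes gene length into account. The group mean was 6044 TPM ± 1428 (SD, n = 12) in exercised quadriceps and 5701 TPM ± 1882 (SD, n = 13) in exercised gastrocnemius. The other 4 muscle groups lay at 3590 TPM ± 686 (SD, n = 10) in quadriceps and 3518 TPM ± 943 (SD, n = 10) in gastrocnemius at 10 months, and at 3402 TPM ± 411 (SD, n = 9) and 3234 TPM ± 259 (SD, n = 10) in sedentary mice at 18 months. Ordered by mean log2 TPM, both exercised groups came first and did not differ from each other beyond their spread. A step of 0.63 on the log2 scale, larger than the SD of 0.46, separated them from the 4 sedentary groups, whose neighbours differed by 0.01 to 0.07, within their SDs. Cord lay 7.84 log2 units below the lowest muscle group, at 17.5 TPM ± 12.6 (SD, n = 10) in sedentary 18-month mice, 16.1 TPM ± 12.2 (SD, n = 13) in exercised mice and 11.0 TPM ± 7.60 (SD, n = 10) at 10 months, again with no step between neighbours beyond the spread. In single muscle libraries Mb ranked between 16th and 46th of all genes by TPM and took 0.0923% to 0.569% of the counts, from 37202 to 335373 counts. In cord it had 62 to 856 counts.

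Exercised mice had more Mb mRNA than sedentary mice of the same age in both leg muscles. In gastrocnemius the sedentary 18-month libraries ran from 1567 through a median of 1707 to 1960.4 CPM scaled by TMM (a factor per library that offsets differences in composition), and the exercised libraries from 1774 through 2917 to 5019 CPM. All 13 exercised libraries were above the sedentary median, 11 were above every sedentary library, and the group means were 3091 ± 1034 (SD, n = 13) and 1729.6 ± 133 CPM (SD, n = 10). The fitted difference was 0.84 ± 0.16 (SE) on the log2 scale, or 1.79-fold. The 42nd highest fold of the 15027 genes tested belonged to Mb. Of all genes tested there, 16, or 0.106%, passed an adjusted p under 0.05 (edgeR's quasi-likelihood F test with Benjamini-Hochberg adjustment), 11 up and 5 down, and with library totals in place of TMM factors 127 up and 10 down.

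In quadriceps the sedentary 18-month libraries had 1413, 1984 and 2252 CPM as lowest, median and highest, and the exercised libraries had 2009, 3717 and 5489 CPM. All 12 exercised libraries lay above the sedentary median and 11 above every sedentary library. The means were 3705 ± 888 (SD, n = 12) and 1976 ± 252 CPM (SD, n = 9), the fitted difference was 0.90 ± 0.14 (SE) on the log2 scale, or 1.87-fold, and Mb stood 32nd by fold among 14790 genes. The share of genes called was 0.757%, or 112 genes. Number 5.4 was the lowest exercised library in both muscles, at 1774 and 2009 CPM, and lay within the sedentary range in both. Number 7.1 was high in both, at 4935 and 5489 CPM.

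**Figure D1:**
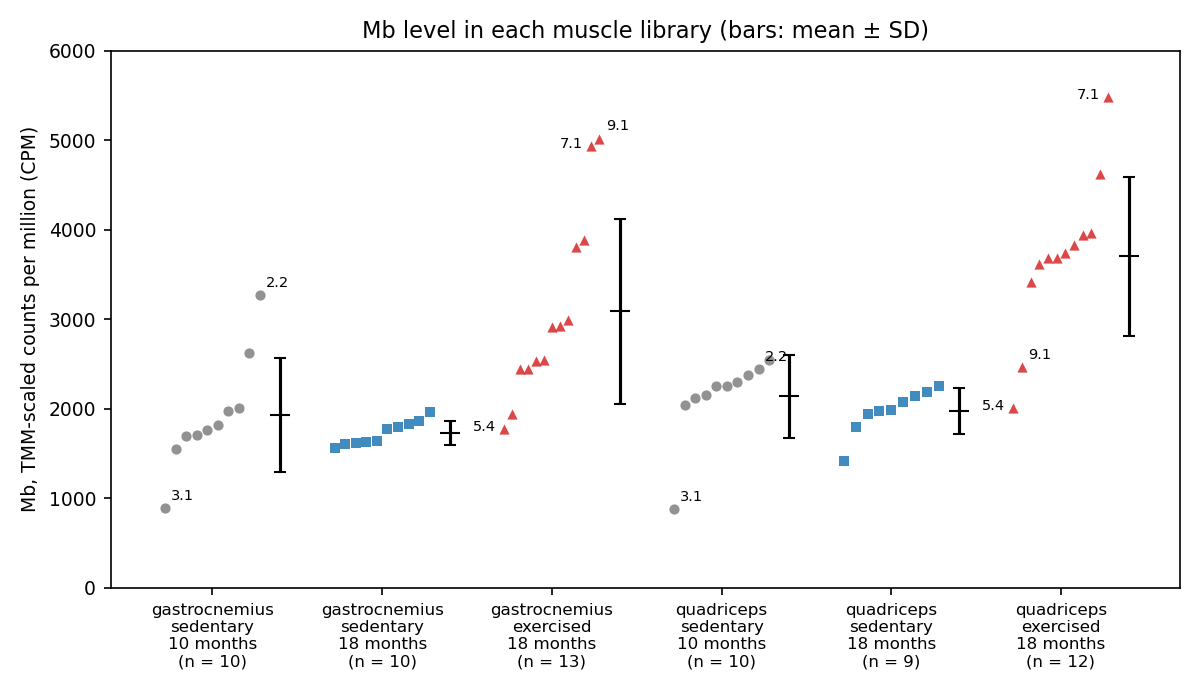
TMM-scaled CPM of Mb (y axis) in every gastrocnemius and quadriceps library, by condition (x axis), with the mean ± SD beside each group and 5 numbers marked. The exercised libraries reach 5019 CPM in gastrocnemius and 5489 CPM in quadriceps, the sedentary 18-month libraries sit in a narrow band, and number 5.4 stays within it.

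The spread of Mb also differed in size between groups. Among sedentary 18-month libraries the highest was 1.25 times the lowest in gastrocnemius and 1.59 times in quadriceps. Among exercised libraries this ratio was 2.83 and 2.73. At 10 months it was 3.68 and 2.89, with number 3.1 lowest in both muscles, at 889 and 883 CPM, and number 2.2 highest in gastrocnemius, at 3273 CPM. These libraries stand apart, and the 10-month ratios rest on them. Without them the 10-month libraries ran from 1552 to 2626 CPM in gastrocnemius and from 2041 to 2548 CPM in quadriceps. In gastrocnemius 4 of 13 exercised libraries were above all 20 sedentary libraries of either age, of which 2.2 was the highest. In quadriceps 10 of 12 were above all 19 sedentary libraries, the highest of which had 2548 CPM.

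Ageing went with little difference in muscle Mb. In gastrocnemius the means were 1932 ± 638 CPM at 10 months and 1729.6 ± 133 CPM at 18 months (SD, n = 10 each), a fitted difference of -0.16 ± 0.17 (SE), and the 18-month libraries all lay inside the 10-month range. In quadriceps the means were 2139 ± 466.4 (SD, n = 10) and 1976 ± 252 CPM (SD, n = 9), a difference of -0.12 ± 0.15 (SE). The 18-month libraries again lay inside the 10-month range, but its lower end was 3.1 alone, at 883 CPM. The next 10-month library had 2041 CPM, above the 18-month median of 1984 CPM. Above the 10-month median were 0 of 9 18-month libraries in quadriceps and 4 of 10 in gastrocnemius. Without 3.1 the quadriceps difference was -0.21 ± 0.12 (SE), and differences of mean log2 levels with 1 library left out ran from -0.21 to -0.02. Without number 2.2 the difference of mean log2 levels in gastrocnemius went from -0.09 to 0.00. The share of all genes called for ageing was 0.153% in gastrocnemius and 0.352% in quadriceps.

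Gastrocnemius had slightly less Mb than quadriceps in all 3 conditions, by -0.15 ± 0.16, -0.19 ± 0.16 and -0.26 ± 0.14 (log2, SE) at 10 months, in sedentary 18-month and in exercised mice. The ranges overlapped in each condition. Without the libraries that stand apart the 10-month difference was -0.26 ± 0.14, and leaving out 1 library gave differences of mean log2 levels from -0.31 (without quadriceps 3.1) to -0.05 (without gastrocnemius 3.1). The share of genes called between both muscles was 10.9%, 13.1% and 18.5% in that order. At 10 months 1043 were higher and 644 lower in gastrocnemius, and in exercised mice 1482 and 1366. With library totals in place of TMM factors these splits were 1217 and 387, and 2493 and 461.

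The same number occurs in both muscles for 31 pairs of libraries. Gastrocnemius was the lower of the pair in 25 of 31, and the mean log2 difference was -0.24 ± 0.36 (SD). After the condition means were taken off, Mb in gastrocnemius and Mb in quadriceps under the same number had a Pearson r of 0.561 and a Spearman rho of 0.393. Without 3.1 and 2.2 the r was 0.338, without 3.1 alone 0.339, and without 9.1 it was 0.770. Within conditions r was 0.817 at 10 months (n = 10 pairs), 0.424 in sedentary 18-month mice (n = 9) and 0.332 in exercised mice (n = 12). Without the 2 numbers farthest from the median in each condition, these were 0.516, 0.288 and 0.668. Number 9.1 had the highest exercised gastrocnemius level, 5019 CPM, and the second lowest in quadriceps, 2463 CPM, a log2 difference of 1.03. Whether a shared number stands for a shared animal is not stated, and these values carry no p.

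**Figure D2:**
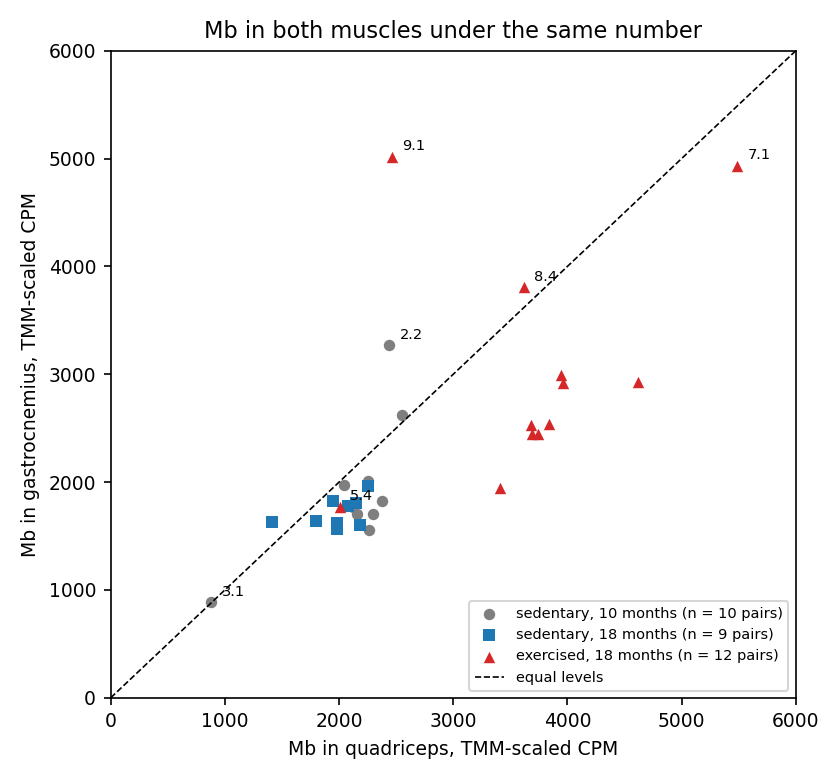
Mb in gastrocnemius (y axis) against quadriceps (x axis) for libraries with the same number, both in TMM-scaled CPM, with a dashed line for equal levels. Of the 31 points, 25 lie below the line, number 3.1 is low in both muscles, 7.1 is high in both and 9.1 is high in gastrocnemius only.

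Mitochondrial mRNA, the 13 protein-coding transcripts of the mitochondrial genome, had a higher mean share of counts in exercised muscle, with overlapping ranges. The share was 10.7% ± 1.34 at 10 months, 10.5% ± 0.767 in sedentary 18-month and 12.4% ± 1.82 in exercised gastrocnemius (SD, n = 10, 10 and 13). In quadriceps it was 13.1% ± 2.08, 13.2% ± 2.44 and 15.3% ± 3.01 (SD, n = 10, 9 and 12). With group means taken off, log2 Mb and this share had an r of 0.320 and a rho of 0.371 over 33 gastrocnemius libraries, and an r of 0.563 and a rho of 0.546 over 31 quadriceps libraries. Both quantities are shares of the same library total, and with Mb expressed relative to non-mitochondrial counts only r was 0.443 and 0.422.

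The gastrocnemius value rests on few libraries. Without 9.1 and 7.1, which had the shares farthest from the median, r was -0.067. Number 9.1 had a share of 16.5% with 5019 CPM of Mb and was also the deepest library, at 62.77 M counts. Number 2.2 had the lowest share, 7.15%, with 3273 CPM of Mb, and without it r was 0.628. Among exercised gastrocnemius libraries alone r was 0.702, and 0.243 without 9.1 and 7.1. In quadriceps r was 0.626 without 8.4 and 8.3, and 0.583, 0.530 and 0.621 within the 3 conditions. At 10 months it was -0.160 without 3.2 and 3.1. Using the deposited TPM in place of CPM, the quadriceps r was 0.194.

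Single mitochondrial transcripts differed in how closely they followed Mb. In gastrocnemius r ran from -0.137 for mt-Nd4l, which had a mean of 3.59 CPM there, to 0.559 for mt-Nd6, a complex I subunit. In quadriceps r ran from 0.137 for mt-Nd3 to 0.663 for mt-Co2, which had means of 38.8 and 46.2 CPM there. The share is carried by 7 transcripts, since the other 6 had a mean under 100 CPM in muscle, mt-Co2 with 37.7 CPM in gastrocnemius beside 39173 CPM for mt-Co1. Among those 7 transcripts r ran from -0.071 for mt-Nd5 to 0.559 for mt-Nd6 in gastrocnemius. In quadriceps the 7 ran from 0.374 for mt-Nd5 to 0.578 for mt-Nd1.

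**Figure D3:**
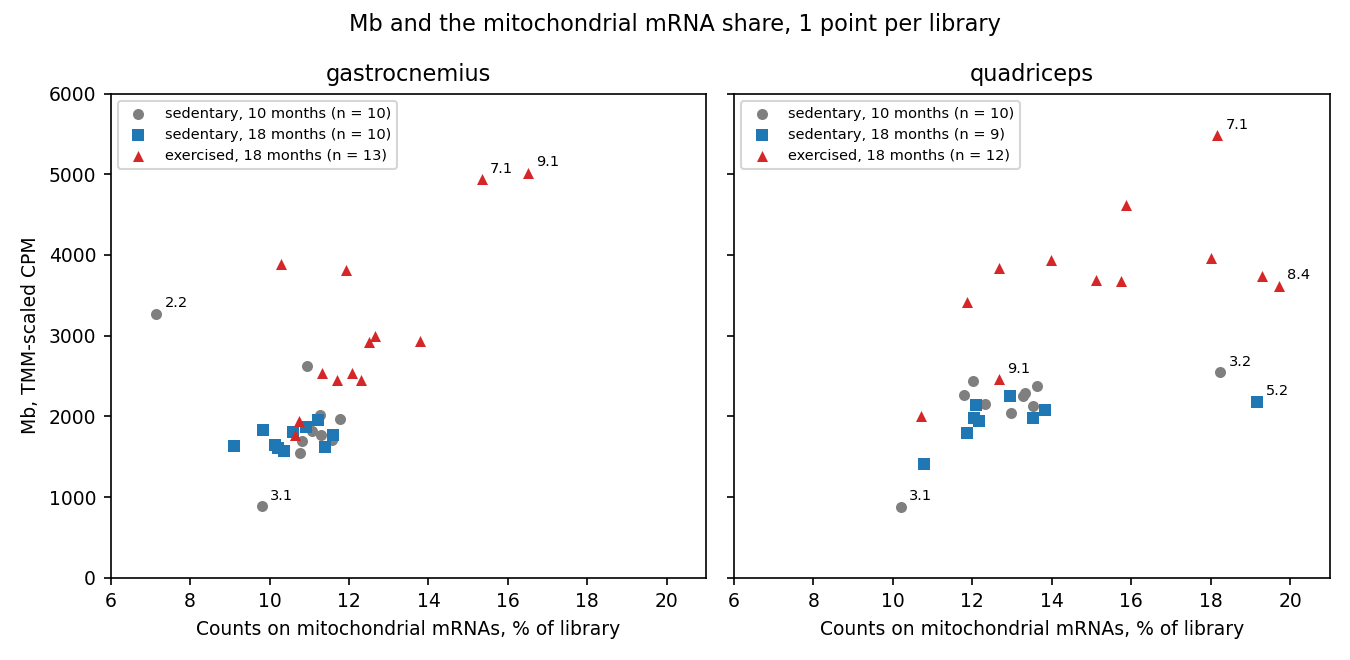
Mb in TMM-scaled CPM (y axis) against the percentage of counts on mitochondrial mRNAs (x axis) in gastrocnemius and quadriceps, 1 point per library, coloured by condition. In gastrocnemius 7.1 and 9.1 sit at the upper right and 2.2 at the far left, and in quadriceps 3.1 is lowest and 7.1 highest on the y axis.

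Of the 10 genes whose levels followed Mb most closely, 5 encode mitochondrial proteins of energy metabolism (Ckmt2, Sdhb, Slc25a11, Cox7a1 and Ndufa9). Likeness was the smaller of both muscles' r with Mb on log2 CPM, with group means taken off, over 33 gastrocnemius and 31 quadriceps libraries and 10541 genes. The closest gene was Ckmt2, the sarcomeric mitochondrial creatine kinase, with r of 0.916 in gastrocnemius and 0.856 in quadriceps. Next came Sdhb, the iron-sulphur subunit of complex II (0.845 and 0.877), Prdx2, a peroxiredoxin (0.841 and 0.893), Slc25a11, the oxoglutarate carrier (0.839 and 0.876), and Cox7a1, the muscle isoform of a complex IV subunit (0.830 and 0.866). The rest of the first 10 were Wbp1, Tspan3, Wdyhv1, Mdh1, the cytosolic malate dehydrogenase (0.893 and 0.823), and Ndufa9, a complex I subunit (0.819 and 0.875). Of these 10, Prdx2 alone was called for exercise, in quadriceps, where 0.757% of all genes were called (0.106% in gastrocnemius). It had a log2 change of 0.35 ± 0.08 (SE; edgeR adjusted p = 0.0185) there and 0.21 ± 0.08 (adjusted p = 0.224) in gastrocnemius. Ckmt2 had larger changes without passing, of 0.55 ± 0.13 in gastrocnemius and 0.54 ± 0.14 in quadriceps (adjusted p = 0.0568 and 0.0697).

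At the other end stood Rora, the nuclear receptor ROR alpha, Tsc22d2, Npc1, a lysosomal cholesterol transporter, C2cd2 and H6pd, the hexose-6-phosphate dehydrogenase of the endoplasmic reticulum, with r from -0.757 to -0.823 in gastrocnemius and from -0.746 to -0.847 in quadriceps. Likeness above 0.7 was reached by 81 genes and below -0.7 by 27, around a median r over all genes of -0.056 and -0.062. Without the libraries that stand apart the 10 closest genes kept r of 0.715 to 0.893 in gastrocnemius and 0.649 to 0.874 in quadriceps, and Ckmt2 had 0.893 and 0.741. These libraries share depth and composition effects across genes, and r is a description.

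Subunits of oxidative phosphorylation encoded in the nucleus followed Mb as a group. Their median r was 0.717 in gastrocnemius and 0.793 in quadriceps, 50 of 51 were positive in both, and without the libraries that stand apart the medians were 0.568 and 0.703. Fatty acid uptake and oxidation genes had medians of 0.391 and 0.092, and of 0.580 and 0.603 without those libraries. Fast and glycolytic fibre genes had medians of 0.218 and 0.445, which were -0.465 and 0.016 without those libraries (3.1 and 2.2 in gastrocnemius, 3.1 in quadriceps). Slow and oxidative fibre genes had 0.386 and 0.437, and 0.195 and 0.213 without them. Calcium and PGC-1 regulators had -0.209 and -0.217, but the members spread from Esrra, the oestrogen-related receptor alpha (0.643 and 0.761), to Prkaa2, the catalytic alpha 2 subunit of AMP kinase (-0.656 and -0.646). Without the libraries that stand apart Esrra had 0.332 and 0.477, and Prkaa2 had -0.328 and -0.298.

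Exercise calls among genes of the oxygen and fibre programmes were few in number, though above the share of all genes in some fibre lists. In gastrocnemius 2 of 23 fast and glycolytic fibre genes passed, where 0.106% of all genes did. DESeq2 called 6 of the 23, beside 201 of 15027 of all genes. Without the libraries that stand apart edgeR called 5, beside 686 of 15182 of all genes. Myh1, the IIx myosin heavy chain, rose from 3075 ± 418 (SD, n = 10) to 6411 ± 2426 CPM (SD, n = 13), a log2 change of 1.06 ± 0.16 (SE; edgeR adjusted p = 0.00203). Its exercised libraries ran from 3289 to 12290 CPM, 11 of 13 above every sedentary library. Mylk2, the skeletal muscle myosin light chain kinase, fell by 0.27 ± 0.06 (SE; adjusted p = 0.0377, and 0.0696 with no filter on low counts). Of 19 slow and oxidative fibre genes none passed, with 5 at an unadjusted p under 0.05, beside 2051 of 15027 of all genes. Of these 19, 2 were called by DESeq2 and 4 by edgeR without the libraries that stand apart.

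In quadriceps 4 of 19 slow and oxidative fibre genes rose and none fell, beside the 0.757% of all genes called. Myh2, the IIa myosin heavy chain of fast oxidative fibres, rose from 2114 ± 149 (SD, n = 9) to 3772 ± 765 CPM (SD, n = 12), by 0.83 ± 0.17 (log2, SE; edgeR adjusted p = 0.00969), and all 12 exercised libraries lay above every sedentary library. Smtnl1, a smoothelin-like protein that responds to protein kinase A, rose by 0.77 ± 0.12 (adjusted p = 0.000958). Sarcolipin (Sln) and phospholamban (Pln), small inhibitors of the calcium pump of the sarcoplasmic reticulum, rose by 0.995 ± 0.198 and 0.52 ± 0.12 (adjusted p = 0.00882 and 0.0263), Pln only to an adjusted p of 0.0623 with library totals as the scale. Myh1 rose here too, by 0.84 ± 0.14 (adjusted p = 0.00122), and Mylk2 fell by 0.31 ± 0.08 (adjusted p = 0.0393, and 0.0632 with no filter on low counts). Without number 3.1, 8 of the 19 slow and oxidative genes passed, where 341 of 14771 of all genes did. In the same libraries Myh1 and Myh2 had r of 0.696 and 0.729 with Mb in gastrocnemius and 0.738 and 0.824 in quadriceps.

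The other contractile genes followed here did not pass. Myh2 in gastrocnemius had 0.50 ± 0.17 (adjusted p = 0.173). Myh4, the IIb heavy chain and the most abundant myosin here, had -0.34 ± 0.09 in gastrocnemius (adjusted p = 0.0815) and -0.21 ± 0.10 in quadriceps (0.437). Myh7, the slow heavy chain, had -0.15 ± 0.14 and 0.19 ± 0.15 (adjusted p = 0.689 and 0.722). Slow troponins Tnnt1 and Tnni1 had -0.04 ± 0.11 and -0.12 ± 0.13 in gastrocnemius and 0.19 ± 0.15 and 0.23 ± 0.16 in quadriceps.

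Genes of respiration and fuel use were fitted slightly higher in exercised muscle without passing. All 51 nuclear oxidative phosphorylation genes had a fitted change above 0 in both muscles, with medians of 0.17 and 0.21 (log2) beside 0.00 and -0.00 for all genes. None of the 51 passed edgeR's adjusted threshold, where 0.106% and 0.757% of all genes did. At an unadjusted p under 0.05 there were 26 and 32, beside 2051 of 15027 and 1692 of 14790 of all genes. DESeq2 called 1 in each muscle, beside 201 and 222 of all genes. Without the libraries that stand apart 22 passed in gastrocnemius and 6 in quadriceps, where 686 and 341 of all genes did. Cox4i1, a complex IV subunit, had 0.17 ± 0.10 and 0.21 ± 0.11 (adjusted p = 0.444 and 0.462), and mt-Co1 had 0.26 ± 0.08 and 0.32 ± 0.17 (0.157 and 0.47). The fatty acid carrier Fabp3 had 0.10 ± 0.13 in both muscles, and the uptake protein Cd36 had 0.09 ± 0.08 and 0.02 ± 0.08. Of 22 fatty acid genes none passed (edgeR, 7 and 4 at an unadjusted p under 0.05, 1 and 0 by DESeq2, 3 and 0 without the libraries that stand apart). Of 18 genes of nitric oxide and oxidant handling 1 passed, in quadriceps. This was Nnt, which makes NADPH in mitochondria, rose by 0.43 ± 0.07 (edgeR adjusted p = 0.00134, and 0.0538 with library totals as the scale). In gastrocnemius none of these 18 passed, with 10 at an unadjusted p under 0.05, 0 by DESeq2 and 2 without the libraries that stand apart.

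Among regulators, 0 of 28 calcium and PGC-1 genes and 0 of 24 hypoxia genes were called for exercise in either muscle (edgeR, all libraries). This is near the share of all genes called, 0.106% in gastrocnemius and 0.757% in quadriceps, so it does not set these lists apart. At an unadjusted p under 0.05 there were 7 and 5 of the first list and 3 and 3 of the second, beside 2051 of 15027 and 1692 of 14790 of all genes. DESeq2 called 0 and 0, and 1 and 0, beside 201 and 222 of all genes. Without the libraries that stand apart edgeR called 3 and 0 of the first list and 2 and 1 of the second. Of all genes, 686 of 15182 and 341 of 14771 were called there. Ppargc1a, the gene of PGC-1 alpha, had -0.03 ± 0.09 in gastrocnemius and 0.04 ± 0.05 in quadriceps. Mef2c had -0.01 ± 0.09 and -0.01 ± 0.10, and Nfatc1, which calcineurin sends to the nucleus, had -0.10 ± 0.08 and -0.07 ± 0.08. Hif1a, the oxygen-sensing factor, had -0.01 ± 0.08 and -0.02 ± 0.07, and Vegfa, an angiogenic factor, had 0.05 ± 0.09 and -0.17 ± 0.13. Haem supply did not pass either, at 0 of 9 haem synthesis genes (3 and 0 at an unadjusted p under 0.05, none by DESeq2). Alas1, the first and limiting enzyme of haem synthesis, had 0.18 ± 0.08 and 0.18 ± 0.10, Fech, which inserts the iron, had -0.06 ± 0.04 and -0.02 ± 0.05, and the haem oxygenase Hmox1 had 0.22 ± 0.25 and -0.06 ± 0.23. Alas1 had an r with Mb of 0.630 in gastrocnemius and 0.689 in quadriceps.

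**Figure D4:**
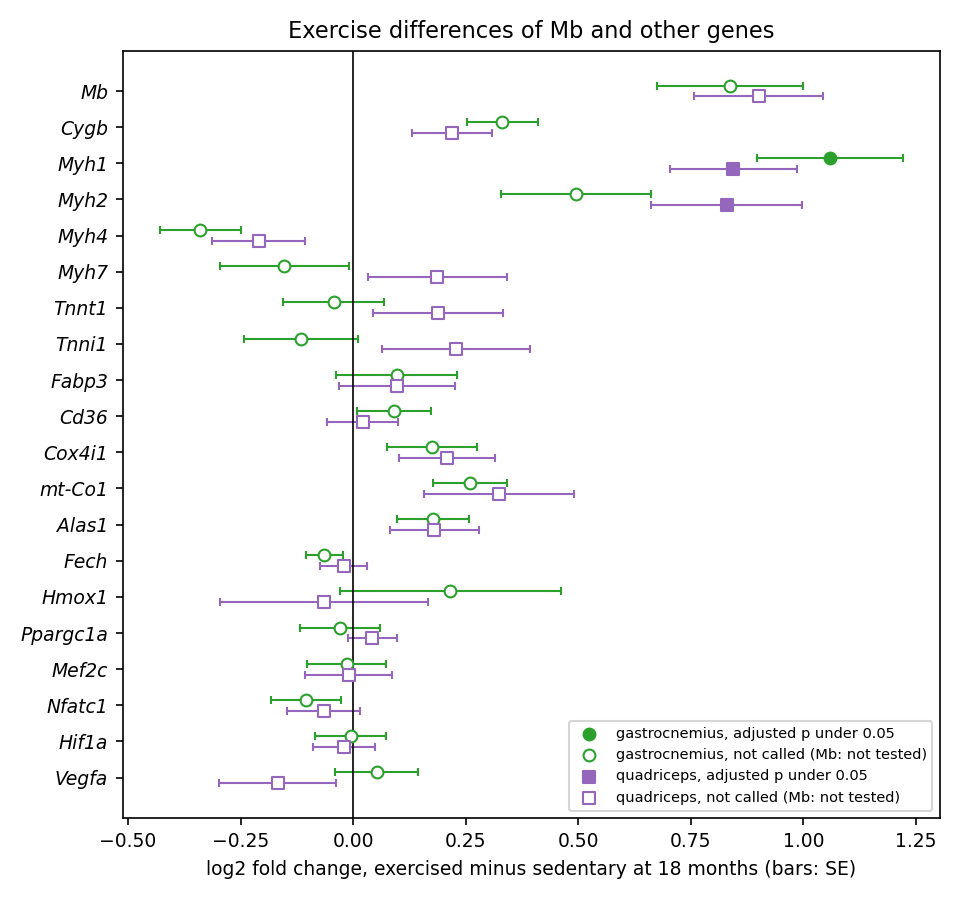
Log2 fold change, exercised minus sedentary at 18 months (x axis, bars SE), of Mb and 19 other genes (y axis) in gastrocnemius and quadriceps. For the 19 other genes, symbols are filled for an adjusted p under 0.05 and open otherwise. Mb is drawn open because no p is given for it. Mb, at 0.84 and 0.90, lies with Myh1 (1.06 and 0.84) and Myh2 (0.50 and 0.83) at the right, and regulators such as Ppargc1a and Hif1a lie near 0.

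Among the globins, Mb was by far the most abundant in muscle. Over all libraries it had 4292 TPM ± 1715 (SD, n = 33) in gastrocnemius and 4485 TPM ± 1589 (SD, n = 31) in quadriceps. Cytoglobin (Cygb), a globin of fibroblasts and vessel walls, had 13.5 TPM ± 2.40 and 13.4 TPM ± 2.21. Neuroglobin (Ngb) had 0.09 and 0.11 TPM in muscle and 16.0 TPM ± 1.56 (SD, n = 33) in cord, where Cygb had 132 TPM ± 9.54. Androglobin (Adgb) had 0.02 TPM in both muscles and 1.29 TPM ± 0.20 in cord. The adult haemoglobin genes Hba-a1, Hba-a2, Hbb-bs and Hbb-bt, which come with red cell RNA, had a median sum of 2319 TPM in cord, against 361 TPM in quadriceps and 245 TPM in gastrocnemius. The 2 alpha genes are near-identical copies, as are the 2 beta genes, so their split is uncertain. Embryonic Hba-x, Hbb-y, Hbb-bh1 and Hbb-bh2 had 0 to 12 counts in all libraries of a tissue together. With exercise Cygb had a log2 change of 0.33 ± 0.08 in gastrocnemius (edgeR adjusted p = 0.0605, called by DESeq2) and 0.22 ± 0.09 in quadriceps (0.302), and it followed Mb with r of 0.631 and 0.620. The adult haemoglobins had fitted changes of -1.06 to -0.66 with no call, and these rest on sedentary number 6.1. Its summed red cell markers were 1207 CPM in gastrocnemius and 1036 CPM in quadriceps, beside group medians of 62.5 and 104.8 CPM. The exercised medians were higher than these, at 74.8 and 136.8 CPM.

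Ageing calls among these lists in muscle were 3, namely 1 of 24 hypoxia genes in each muscle and 1 of 8 adipocyte markers in quadriceps, where 0.153% (gastrocnemius) and 0.352% (quadriceps) of all genes were called. Pfkfb3, a glycolytic regulator from the hypoxia list, rose from 315 ± 87.8 to 562 ± 149.5 CPM in gastrocnemius (SD, n = 10 each), by 0.83 ± 0.18 (log2, SE; edgeR adjusted p = 0.0421), but had 0.0706 without 3.1 and 2.2 and 0.0546 with library totals as the scale. In quadriceps it rose by 0.95 ± 0.21 (adjusted p = 0.0369, and 0.0569 with library totals). Leptin (Lep), an adipocyte hormone, fell by 1.44 ± 0.28 in quadriceps (adjusted p = 0.015), from 4.79 ± 2.29 to 1.77 ± 0.67 CPM, and had -1.74 ± 0.39 in gastrocnemius (adjusted p = 0.052). Pfkfb3 had an r with Mb of -0.339 in gastrocnemius and 0.025 in quadriceps.

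Between muscles, 26 of 51 nuclear oxidative phosphorylation genes were lower and none higher in gastrocnemius of exercised mice, where 18.5% of all genes were called, with Cox6a2 at -0.44 ± 0.09 (log2, SE; edgeR adjusted p = 0.000318), Ndufs8 at -0.41 ± 0.09, Cox7a1 at -0.49 ± 0.11 and Ndufa10 at -0.25 ± 0.06. At 10 months 4 passed and in sedentary 18-month mice 6, all lower, which is below or near the 10.9% and 13.1% of all genes called there. Without the libraries that stand apart these counts were 42, 25 and, in exercised mice, 37. Of all 15474 genes tested there, 3886, 3353 and 4409 were called. With library totals as the scale the exercised count was 8. Mitochondrial mRNAs were lower for 5, 5 and 9 of 13, mt-Cytb by -0.44 ± 0.10 in exercised mice (adjusted p = 0.000778). Fatty acid genes were lower for 6, 12 and 10 of 22 (3, 6 and 3 called with library totals as the scale), with Cpt2, a carnitine palmitoyltransferase, at -0.35 ± 0.07 (adjusted p = 0.000265) and the transporter Slc27a4 at -0.31 ± 0.05 in exercised mice.

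Ppargc1a was higher in gastrocnemius in all 3 conditions, by 0.30 ± 0.08, 0.32 ± 0.08 and 0.24 ± 0.07 (log2, SE; edgeR adjusted p = 0.007, 0.00458 and 0.0117). Esrrg, the oestrogen-related receptor gamma, was higher by 0.44 ± 0.13, 0.58 ± 0.14 and 0.45 ± 0.12. Calcium and PGC-1 genes were higher for 5, 6 and 5 of 28 and lower for 0, 1 and 2, beside 10.9%, 13.1% and 18.5% of all genes called. Slow fibre genes were higher for 5, 6 and 2 of 19 and lower for 1 in each condition, with Myl2 higher by 0.48 ± 0.14, 0.81 ± 0.15 and 0.40 ± 0.13 and Car3 by 0.997 ± 0.160, 0.85 ± 0.17 and 0.68 ± 0.14. Myh1 was lower there, by -0.69 ± 0.16, -0.76 ± 0.16 and -0.55 ± 0.14. The haem synthesis genes called, 1, 4 and 2 of 9, were all lower in gastrocnemius, with Alad, which joins aminolevulinic acid, at -0.30 ± 0.09, -0.29 ± 0.09 and -0.27 ± 0.08. The haem synthesis shares at 10 months and in exercised mice are near those of all genes. The slow fibre share in exercised mice is below that of all genes. Of 24 hypoxia genes 2, 2 and 3 were lower and 0, 0 and 1 higher, no more than the share of all genes. Among them P4ha1 and P4ha2, subunits of collagen prolyl hydroxylase, were lower in all 3 conditions, by -0.30 to -0.42.

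Markers of other cell types moved beside Mb in some groups. The sum of 10 endothelial markers was 347 ± 28.6 CPM (SD, n = 10) in sedentary 18-month and 412 ± 64.9 CPM (SD, n = 13) in exercised gastrocnemius, and 379 ± 30.4 (SD, n = 9) and 434 ± 70.7 CPM (SD, n = 12) in quadriceps. All 10 were fitted higher in both muscles, and none was called by edgeR, where 0.106% and 0.757% of all genes were. Of the 10, 7 and 4 were at an unadjusted p under 0.05, beside 2051 of 15027 and 1692 of 14790 of all genes. DESeq2 called 1 and 0, beside 201 and 222 of all genes. Without the libraries that stand apart edgeR called 6 and 1, beside 686 of 15182 and 341 of 14771 of all genes. The endothelial sum ran from 306 to 403 CPM against 318 to 547 CPM in gastrocnemius. In quadriceps it ran from 337 to 434 CPM against 340 to 580 CPM. Adipocyte markers ran from 141 to 230 CPM and from 188 to 449 CPM in the same gastrocnemius groups and from 140 to 629 and 252 to 531 CPM in quadriceps. None of 8 adipocyte markers was called by edgeR (3 and 0 at an unadjusted p under 0.05, 1 and 0 by DESeq2). The part of these cells in the Mb difference was not tested. The skeletal muscle markers themselves summed to 255012 ± 15345 CPM in sedentary and 231173 ± 20376 CPM in exercised gastrocnemius, and to 250335 ± 23365 and 244431 ± 33092 CPM in quadriceps. As a percentage of that sum Mb was 0.681 ± 0.070 and 1.38 ± 0.577 in gastrocnemius, and 0.793 ± 0.113 and 1.56 ± 0.533 in quadriceps. The markers in the sum also differed with exercise, with 4 and 7 of 20 fitted higher and the rest lower, so the percentage depends on them too. The part of muscle content in the Mb difference was not tested.

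In spinal cord, Mb was higher in libraries with more skeletal muscle transcripts. Its level was 1.88, 3.63 and 11.1 CPM (lowest, median, highest) at 10 months, 2.65, 5.53 and 18.5 CPM in sedentary 18-month mice and 1.84, 5.93 and 21.7 CPM in exercised mice. The groups overlapped almost wholly. Fitted differences were 0.70 ± 0.41 (log2, SE) for ageing and -0.14 ± 0.37 for exercise, and 0.88 and -0.32 without 5.2 and 6.1. For ageing 5.35% of 18956 genes were called in cord, 535 up and 480 down, or 694 and 278 with library totals as the scale. For exercise 0% were called by edgeR, with 2565 genes at an unadjusted p under 0.05 and 0 called by DESeq2.

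Over 33 cord libraries, log2 Mb and the log2 sum of the 20 skeletal muscle markers had a Pearson r of 0.851 and a Spearman rho of 0.858 with group means taken off. Since Mb was selected on its levels in these libraries, no p is given, and both quantities come from the same libraries. Without the 2 libraries farthest from the median marker level, r was 0.831, and without 5.2 and 6.1 it was 0.865. Within groups r was 0.899, 0.792 and 0.876.

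Each of the 20 markers alone had a positive r with Mb in cord, from 0.367 for Pygm to 0.960 for Myh1, with a median of 0.862. Pygm, the muscle glycogen phosphorylase, was also the one with a cord level of 2.52% of that in gastrocnemius (by TPM), where the 20 markers had a median of 0.277% and a lowest value of 0.230%, and Mb had 0.35%. Acta1, skeletal muscle actin, ran from 20.4 to 189 CPM and Myh4 from 25.3 to 323 CPM over the cord libraries, and none of the 20 markers was at 0. The r of 12 smooth and cardiac muscle markers ran from -0.497 for Acta2 to 0.324 for Ryr2, a calcium channel that neurons also express. None of the 20 skeletal markers was called for ageing or exercise in cord (edgeR, 0 at an unadjusted p under 0.05 in both and 0 by DESeq2). This is near the share of all genes called, 5.35% for ageing and 0% for exercise, so it does not set these markers apart. Of all 18956 genes 4987 and 2565 were at an unadjusted p under 0.05, and DESeq2 called 1612 and 0.

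**Figure D5:**
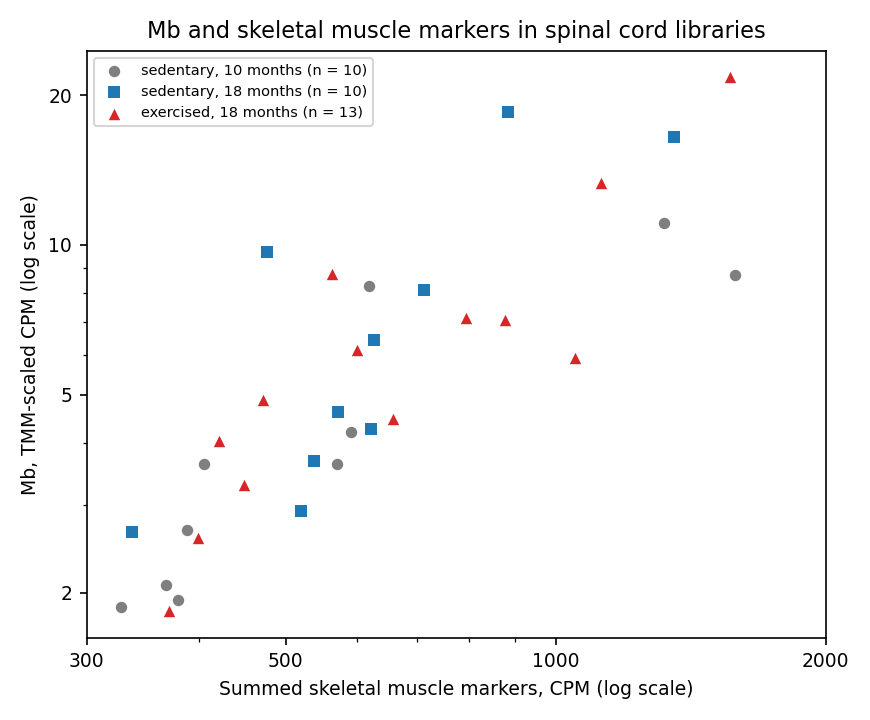
Mb in TMM-scaled CPM (y axis, log scale) against the summed CPM of 20 skeletal muscle markers (x axis, log scale) in 33 spinal cord libraries, coloured by condition. The 3 groups overlap on both axes and libraries with more muscle marker RNA have more Mb, up to 21.7 CPM of Mb at 1563 CPM of markers.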

How the data were processed

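The submitters' processing notes name the aligner STAR 2.5.2b and the genome build GRCm38.p5. No source used here names the counting program. The authors deposited raw counts by gene, with gene lengths, and TPM. The deposited TPM equal counts over length, rescaled per library, to within 0.0005 TPM. Quadriceps 10.4 (sedentary, 18 months) and 10.2 (exercised) were not analysed here, which leaves 97 of 99 samples.

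Libraries were grouped by the labels. Counts were fitted with edgeR 4.0.16 (R 4.3.3), 1 fit per tissue with 3 groups and 1 fit of both muscles with 6, with TMM factors, filterByExpr (minimum count 10, minimum total 15) and the quasi-likelihood F test. A gene was called where its p, adjusted by Benjamini and Hochberg's method across the fit's genes, was under 0.05, and list medians use the genes tested. Printed CPM use TMM factors over all 64 muscle or all 33 cord libraries, and log2 values add 0.5 counts. The fit was tested on simulated data. No library copied another of its group (lowest chi-square per gene 3.23). Depth above 29.06 M counts makes counting error small beside the spread of Mb in muscle, while in cord 62 to 856 counts carry a visible one.

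Values are printed for Mb, for the 10 genes most and 5 least like it (mean log2 CPM of at least 1, predicted, pseudogene, ribosomal protein and mitochondrial genes left out), the globins, up to 4 called members of 17 gene lists per muscle comparison (between muscles a choice of these, made after their values were seen) and 19 fixed genes. The gene, lists and rules were chosen with earlier results of these data known. Alternatives were DESeq2 1.42.0, RLE factors, library totals, mitochondrial genes left out, no count filter, libraries left out and a replicate block. Correlations used scipy 1.17.1, and sequences come from RefSeq.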

Additional observations from a re-analysis of the deposited data

Results flagged for a closer look

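In 16 group-wise checks of Mb and of the mitochondrial mRNA share, 6 checks, in 4 groups, found a library whose gap to its neighbour was wide for the group's range. Mb was selected with these values known, so the checks only describe and no chance rate is set against them. Quadriceps 3.1 (10 months) had the lowest Mb of its group, 883 CPM, and the same number was lowest in gastrocnemius. Quadriceps 9.3 (sedentary, 18 months) had 1413 CPM of Mb, below the other 8 libraries of its group, while gastrocnemius 9.3 had 1632 CPM, inside the range of its group. In gastrocnemius 2.2 (10 months) the mitochondrial share was 7.15%, the lowest of its group, beside the highest Mb there. Quadriceps 3.2 (10 months) and 5.2 (sedentary, 18 months) had shares of 18.2% and 19.2%, the highest of their groups, with Mb of 2548 and 2184 CPM. Cord 5.2 (sedentary, 18 months) had a share of 1.58%, against a group median of 4.34%, and Mb of 4.27 CPM.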

How the results depend on the processing

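The log2 differences of Mb in 9 comparisons kept their sign under all 57 alternatives: exercise gave 0.83 to 0.87 in gastrocnemius and 0.88 to 0.91 in quadriceps. Leaving out 1 library at a time gave differences of mean log2 CPM of 0.71 to 0.83 and 0.82 to 0.95 for exercise, and of -0.21 to 0.00 for ageing in gastrocnemius and -0.29 to 0.04 for exercise in cord, where the upper ends, without 2.2 and without 9.2, were above 0. Counts of genes called moved more, and the cause was not tested. Without the libraries that stand apart, calls numbered 49 (ageing) and 686 (exercise) in gastrocnemius, 113 and 341 in quadriceps, 454 for ageing in cord, and 3886, 3353 and 4409 between muscles at 10 months, in sedentary 18-month and in exercised mice. DESeq2 gave 75 and 201 in gastrocnemius, 120 and 222 in quadriceps and 1612 for ageing in cord. Library totals gave 14 and 137 in gastrocnemius and 28 and 73 in quadriceps. For exercise in gastrocnemius RLE factors gave 25 and no filter 10, and for ageing in cord no filter gave 540. Against this stand 23 and 16, 52 and 112, 1015, and 1687, 2016 and 2848 as reported.

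The number shared by both muscles was not treated as pairing in the main fits, because its meaning is not given in the sources used here. Most same-number pairs did go together. Of 31 pairs, 27 had a correlation of deviations over 0.1 (median 0.194), and 21 correlated best with their own number within their condition. With the number as a replicate block, Mb differed between muscles by -0.17 ± 0.11, -0.20 ± 0.11 and -0.33 ± 0.10 (log2, SE). The SEs without the block were 0.16, 0.16 and 0.14. With the block 3711, 3807 and 5894 genes were called. The r of Mb between muscles ran from 0.339 to 0.770 with 1 number left out. With the mitochondrial share, r in gastrocnemius ran from 0.159 to 0.628 with 1 library left out and was -0.067 without the 2 libraries farthest from the median share and 0.627 without those that stand apart. In quadriceps it was 0.194 with the deposited TPM. Cord Mb rests on few counts per library.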
